A study of Mus musculus with 6 samples.

Results

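Laminins, nidogens, perlecan and agrin are the non-collagen backbone of the basement membrane that pericytes share with the capillary endothelium. The 10 genes described here are Lama2, Lama4 and Lama5 (laminin alpha chains), Lamb1 and Lamb2 (beta chains), Lamc1 (gamma chain), Nid1 and Nid2 (nidogens), Hspg2 (perlecan) and Agrn (agrin). They were taken by symbol from 21603 genes measured in lung pericytes at P8, and all 10 were found and passed the filter on low values. None of them met the thresholds for a changed gene between control and Yap1,Wwtr1 iPCKO pericytes. Of all tested genes, 4.11% met them as higher and 2.68% as lower in iPCKO samples. The 10 genes did not move as a block. Hspg2, Lama5 and Agrn were at 138%, 138% and 132% of the control mean, Nid1 and Nid2 were at 82.0% and 73.2% of it, and the remaining laminin chains lay between 89.6% and 102% of it.

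A laminin is a cross-shaped trimer of an alpha, a beta and a gamma chain. The short arms of the cross join neighbouring laminins into a sheet, while the end of the alpha chain binds integrins and dystroglycan on the cell. Nidogens link this sheet to the collagen IV network, and the heparan sulfate proteoglycans perlecan and agrin bind laminin and hold growth factors in the matrix. In the lung, this membrane lies between the alveolar epithelium and the capillary and surrounds the pericytes.

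RNA on HA-tagged ribosomes was sequenced from 3 control and 3 iPCKO lungs at P8. All 6 mice carried Pdgfrb(BAC)-CreERT2 and the Rpl22 RiboTag allele, and all received tamoxifen in the first days after birth. Controls had 1 floxed and 1 wild-type copy of both Yap1 and Wwtr1, which the labels give as Yap1+/-;Wwtr1+/-, and iPCKO mice were floxed on both copies (Yap1-/-;Wwtr1-/-). By genotype, the comparison is between cells left with 1 copy of each gene and cells left with none, where recombination was complete. The tag marks every cell in which the Pdgfrb promoter drove recombination. Values are the authors' RPKM, the reads of a gene scaled by its exon length and by the size of the library, which allow levels of different genes to be compared per length.

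The libraries of a group correlated at r = 0.977 to 0.992 across genes, and libraries of different groups at 0.929 to 0.962. The step that 1 read leaves in low RPKM values implied denominators of 17.43 to 34.66 M reads in controls and 14.24 to 39.62 M in iPCKO samples. With these denominators, each value of the 10 genes rests on roughly 3016 to 80526 reads. Yap1 fell from 12.35 ± 0.86 to 5.61 ± 0.31 RPKM (SD, n = 3), a log2 fold change of -1.12 with an adjusted p of 0.000175 by limma, whereas Wwtr1 was at 60.39 ± 9.48 and 61.98 ± 1.63 RPKM. A value for the whole gene does not separate the deleted exons of Wwtr1 from the rest. Pdgfrb, at 1533 RPKM in controls and 1337 RPKM in iPCKO samples, was far above the endothelial marker Pecam1, at 17.0 and 17.2 RPKM. Markers of other cells spanned a wide range in controls. The alveolar Sftpc was at 362.8, the airway Scgb1a1 at 114.1, the smooth muscle Acta2 at 683.1 and the endothelial Emcn at 4.42 RPKM. These levels do not give the share of RNA from other cells. The summed level of 14 pericyte markers was 5567 to 6658 RPKM in controls and 5434 to 6533 RPKM in iPCKO samples. Single pericyte markers changed in both directions, as Cspg4, Kcnj8 and Abcc9 rose to 208%, 202% and 222% of the control mean and Notch3 and Rgs5 fell to 52.1% and 43.9% of it. Across 12034 tested genes, 495 rose and 322 fell (limma, adjusted p below 0.01 and absolute log2 fold change above 0.5), or 4.11% and 2.68% of those tested.

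YAP1 and TAZ do not bind DNA themselves and act through TEAD factors. The promoters of the 10 genes were therefore searched for the TEAD core and, as a second motif, for the GC box bound by SP-family factors. Shown are the promoters of the 3 genes that were higher in iPCKO samples and of Nid1, where the TEAD core was found. Sequences are the RefSeq promoters of GRCm38.p6, 5′ to 3′ on the strand of the gene, starting 250 bases before the RefSeq start. They end at the base before the GENCODE start of the gene, which for Hspg2 and Nid1 lies upstream of the RefSeq start. Distances below count from the RefSeq start. Capitals mark GGAATG, the TEAD core, and GGGCGG, the GC box, or their reverse complements CATTCC and CCGCCC.
Lama5, chr2:180225860-180226109, minus strand: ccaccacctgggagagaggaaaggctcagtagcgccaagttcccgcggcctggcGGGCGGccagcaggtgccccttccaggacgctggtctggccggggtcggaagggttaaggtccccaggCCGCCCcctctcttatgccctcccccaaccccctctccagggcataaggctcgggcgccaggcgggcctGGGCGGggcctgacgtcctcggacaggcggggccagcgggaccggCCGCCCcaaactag
Hspg2, chr4:137468553-137468768, plus strand: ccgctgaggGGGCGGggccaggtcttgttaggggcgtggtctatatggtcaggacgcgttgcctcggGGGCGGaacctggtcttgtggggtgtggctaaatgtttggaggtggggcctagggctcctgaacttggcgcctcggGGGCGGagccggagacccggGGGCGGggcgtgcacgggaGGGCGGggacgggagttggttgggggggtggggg
Agrn, chr4:156197489-156197738, minus strand: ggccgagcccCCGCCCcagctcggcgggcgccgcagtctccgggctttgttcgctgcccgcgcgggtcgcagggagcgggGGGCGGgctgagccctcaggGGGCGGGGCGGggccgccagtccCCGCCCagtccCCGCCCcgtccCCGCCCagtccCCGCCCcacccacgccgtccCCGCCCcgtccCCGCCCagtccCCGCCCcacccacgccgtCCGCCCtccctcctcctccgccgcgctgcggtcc
Nid1, chr13:13437352-13437550, plus strand: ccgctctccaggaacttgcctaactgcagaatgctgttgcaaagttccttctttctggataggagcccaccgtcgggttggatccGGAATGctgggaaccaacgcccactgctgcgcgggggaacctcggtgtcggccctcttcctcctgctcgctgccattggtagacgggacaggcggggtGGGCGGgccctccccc
Of the 10 genes, 7 had a promoter in the RefSeq table, with 2 promoters for Agrn. Lama4, Lamc1 and Nid2 were not matched. The TEAD core was in 1 of these 8 promoters, that of Nid1, 165 bases before the RefSeq start, against 12.6% of all 32851 promoters of 250 bases. The GC box was in 6 of the 8, against 32.7% of all promoters. The first Agrn promoter held 12 GC boxes, of which those 150 and 145 bases before the start overlap by 1 base, and the Hspg2, Lama5, Lamb1 and Nid1 promoters held 5, 4, 2 and 1. Those of Lama2 and Lamb2 held none. By GENCODE bounds, however, the promoter windows of Lama2 and of the second Agrn promoter lie inside the gene. Those of Lamb1 and Lamb2 run past the GENCODE start, for Lamb2 from 108479736 to 108479861. G+C content was 83.6%, 72.4% and 70.0% in the promoters of Agrn (the first of its 2), Lama5 and Hspg2, 60.8% in the second Agrn promoter, 64.4% and 62.0% in those of Nid1 and Lamb1, and 47.2% and 43.6% in those of Lama2 and Lamb2. A match is a string of letters, and no binding was measured here.

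In control pericytes, all 10 genes were among the upper ranks of the tested genes. Nid1 was the highest, at 321.4 ± 17.8 RPKM (SD, n = 3), above 99.4% of tested genes, followed by Lamc1 at 170.2 ± 6.5 RPKM and Lamb1 at 126.5 ± 1.8 RPKM. Lama2, Hspg2 and Lamb2 came next, at 82.1, 76.7 and 70.8 RPKM, and Nid2 and Lama4 at 61.6 and 61.2 RPKM. Agrn, at 41.3 RPKM, and Lama5, at 33.0 RPKM, were the lowest, and Lama5 was still above 87.5% of tested genes. Neighbours in this order had control samples that did not overlap, except Lama2 with Hspg2, Hspg2 with Lamb2, and Nid2 with Lama4. The ubiquitous gamma chain Lamc1 made up nearly all gamma chain signal. The summed alpha, beta and gamma chain levels were close to each other, at 219.8 ± 4.0, 202.9 ± 2.5 and 180.3 ± 5.6 RPKM in controls and 214.7 ± 11.4, 186.1 ± 10.4 and 186.8 ± 11.3 RPKM in iPCKO samples.

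**Figure D1:**
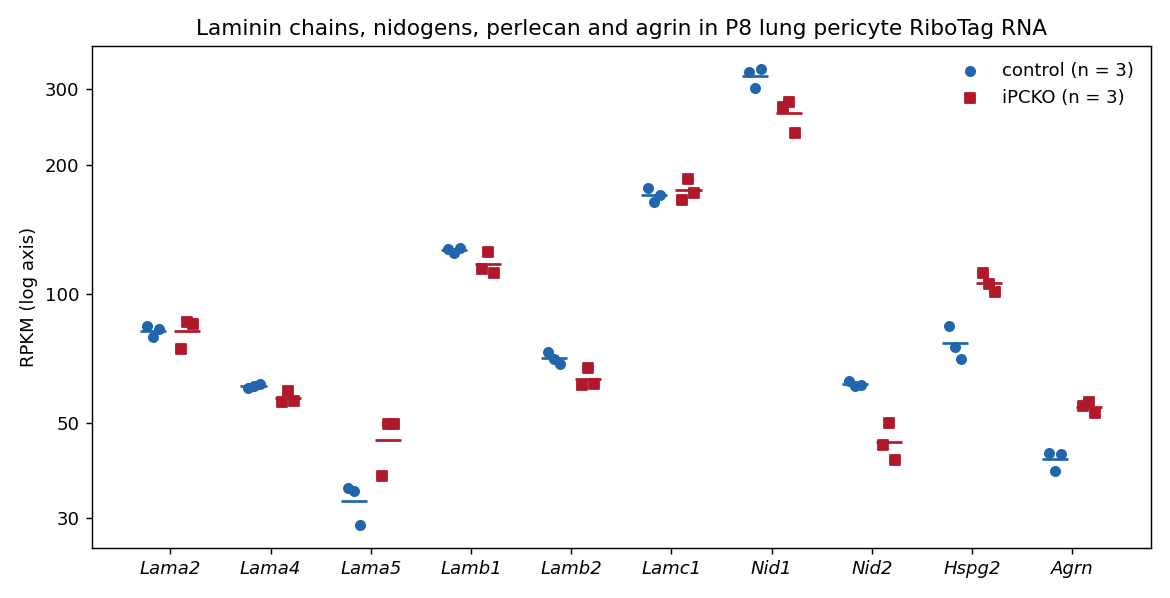
RPKM of the 10 genes in each sample on a log axis, with control samples as blue circles, iPCKO samples as red squares and the group mean as a line (n = 3 per group). Nid1 is the highest gene in both groups. The iPCKO samples of Hspg2, Agrn and Lama5 lie above all controls, and those of Nid1, Nid2, Lama4 and Lamb2 lie below all controls.

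The alpha chains set which receptors a laminin can bind. Lama5, on chr2:180176373-180225859 (minus strand), encodes the chain of the main epithelial and vessel wall laminin, which is needed for normal lung development in mice. It was at 35.25, 34.80 and 28.97 RPKM in controls and at 37.70, 49.65 and 49.72 RPKM in iPCKO samples. Every iPCKO sample was above every control, but iPCKO 1 was only slightly above the highest control. The log2 fold change was 0.46 (95% interval 0.16 to 0.77) with an adjusted p of 0.05 in limma. Without iPCKO 1 it was 0.59 with an adjusted p of 0.0098, past both thresholds, and over all alternatives the adjusted p ranged from 0.00096 to 0.18. In such bulk samples, more or fewer tagged cells of a type cannot be told apart from more or less RNA per cell.

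Lama4, on chr10:38965515-39110188 (plus strand), encodes a truncated alpha chain of the vessel wall that does not take part in laminin polymerisation. It was at 60.49, 61.17 and 61.82 RPKM in controls and at 55.98, 59.51 and 56.43 RPKM in iPCKO samples. The groups did not overlap, yet the difference was small, with a log2 fold change of -0.09 (interval -0.28 to 0.09, adjusted p = 0.478, limma). Lama2, on chr10:26980036-27619758 (minus strand), whose loss causes a congenital muscular dystrophy, was at 84.32, 79.17 and 82.92 RPKM in controls and at 74.23, 85.89 and 85.19 RPKM in iPCKO samples. Here the groups overlapped, and the log2 fold change of -0.01 had an interval of -0.22 to 0.21.

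The beta and gamma chains complete the trimer. Lamb1, on chr12:31265234-31329644 (plus strand), the beta chain of most embryonic and vascular laminins, was at 127.26, 124.39 and 127.76 RPKM in controls and at 114.36, 125.18 and 112.03 RPKM in iPCKO samples. The sample iPCKO 2 lay within the control range. The log2 fold change of Lamb1 was -0.11 (interval -0.32 to 0.10, adjusted p = 0.461, limma). Lamb2, on chr9:108479736-108490530 (plus strand), the beta chain of synaptic and glomerular laminins, was at 73.13, 70.65 and 68.61 RPKM in controls and at 61.50, 67.26 and 61.63 RPKM in iPCKO samples. All iPCKO samples were below all controls, with a log2 fold change of -0.16 (interval -0.35 to 0.04, adjusted p = 0.256, limma). Lamc1, on chr1:153218922-153332786 (minus strand), without which most laminin trimers cannot form, was at 176.59, 163.55 and 170.43 RPKM in controls and at 165.93, 185.24 and 171.98 RPKM in iPCKO samples. The groups overlapped, and the interval of the log2 fold change of 0.03 ran from -0.19 to 0.26.

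Both nidogens, which bind the laminin gamma chain and collagen IV, were lower in every iPCKO sample. Nid1, on chr13:13437551-13512269 (plus strand), was at 328.47, 301.18 and 334.63 RPKM in controls and at 272.70, 280.36 and 237.65 RPKM in iPCKO samples. This gave a log2 fold change of -0.29 (interval -0.55 to -0.03) with an adjusted p of 0.133. Nid2, on chr14:19751265-19811787 (plus strand), was at 62.54, 61.16 and 61.21 RPKM in controls and at 44.40, 50.02 and 40.93 RPKM in iPCKO samples. The gap between the groups was larger than the spread within either, and the log2 fold change was -0.45 (interval -0.67 to -0.24) with an adjusted p of 0.0147. This p missed the threshold of 0.01, and the fold missed 0.5.

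The 2 heparan sulfate proteoglycans were both higher in every iPCKO sample. Hspg2, on chr4:137468769-137570630 (plus strand), encodes perlecan, whose heparan sulfate binds FGFs and VEGF. It was at 84.16, 75.33 and 70.55 RPKM in controls and at 111.82, 105.51 and 100.96 RPKM in iPCKO samples. The log2 fold change was 0.47 (interval 0.24 to 0.70, adjusted p = 0.015, limma). Agrn, on chr4:156165290-156197488 (minus strand), encodes agrin, which binds laminin and dystroglycan and, in its neural form, acts on LRP4 at the neuromuscular junction. It was at 42.65, 38.77 and 42.41 RPKM in controls and at 54.71, 56.05 and 52.81 RPKM in iPCKO samples. The lowest iPCKO sample was well above the highest control, and the log2 fold change was 0.40 (interval 0.21 to 0.59, adjusted p = 0.0137, limma). A gene-level value does not separate the neural from the non-neural splice forms.

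Counted together, 0 of the 10 genes met both thresholds in limma, beside 4.11% of tested genes that rose and 2.68% that fell. At an unadjusted p below 0.05 there were 5 (Lama5, Nid1, Nid2, Hspg2 and Agrn), beside 3570 of the 12034 tested genes. At an adjusted p below 0.05 and any fold, 3 were higher and 1 was lower, beside 8.63% and 6.52% of all tested genes. Of the 3, Lama5 lay just under this limit, with an adjusted p that rounds to 0.05 (limma). Over all alternatives its adjusted p ranged from 0.00096 to 0.18. The groups did not overlap for 3 genes that were higher and 4 that were lower, beside 18.3% and 17.1% of tested genes. The median log2 fold change of the 10 was -0.05 with a range of -0.45 to 0.47, and that of all tested genes was 0. The 95% intervals of Lama2, Lama4, Lamb1, Lamb2 and Lamc1 lay within ±0.5, and those of Lama5, Hspg2, Agrn, Nid1 and Nid2 reached past 0.5 in 1 direction. The G+C content of the transcripts was 60.8%, 59.4% and 57.1% for Hspg2, Lama5 and Agrn and 45.7% to 58.7% for the other 7 genes, and its part in the fold changes was not tested beyond the removal of a trend. With the trend of fold change on G+C content removed, an alternative chosen after seeing the data, the log2 fold changes of Hspg2, Lama5 and Agrn were 0.38, 0.38 and 0.33, and Nid2 passed the thresholds at -0.51 (adjusted p = 0.0057, limma). Over all alternatives the adjusted p of Nid2 ranged from 0.0057 to 0.058.

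**Figure D2:**
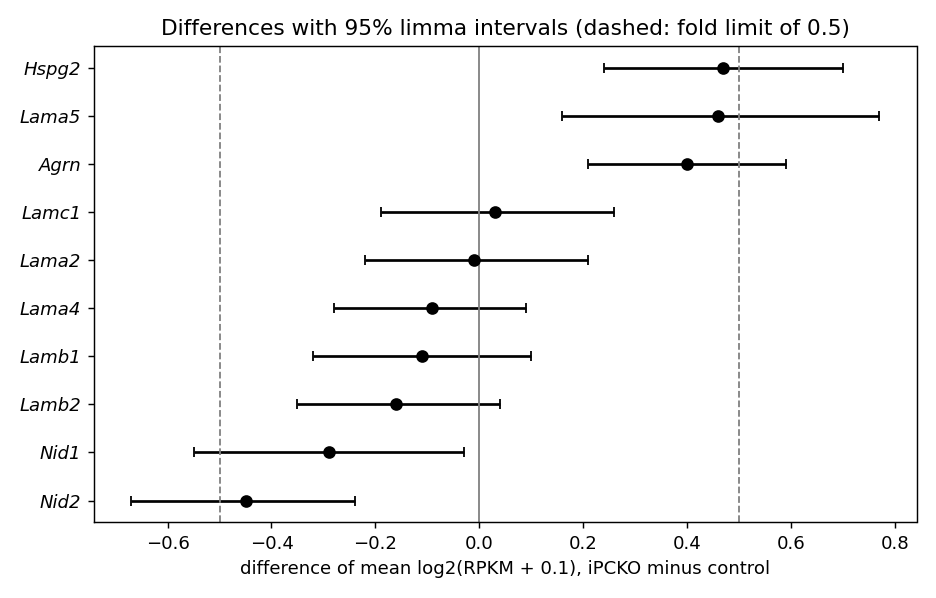
Log2 fold change of each gene (difference of mean log2(RPKM + 0.1), iPCKO minus control, n = 3 per group) as a point with its 95% limma interval, and dashed lines at the fold limit of 0.5. Hspg2, Lama5 and Agrn lie above 0 with intervals that exclude it, Nid1 and Nid2 lie below 0, and no point passes the limit.

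Makeup within each family does not depend on scaling between libraries and was compared as the percent of summed RPKM per sample. Lama5 made up 16.29%, 15.90% and 12.92% of the 5 laminin alpha chains in controls and 18.66%, 22.16% and 22.80% in iPCKO samples. The groups did not overlap, and the difference of 6.17 points exceeded the SDs of 1.85 and 2.23. The share of Lama2 was 37.4% ± 1.4 and 38.1% ± 1.2 and that of Lama4 27.8% ± 0.2 and 26.7% ± 0.9 (SD, n = 3). Lama3, whose share was not compared, fell from a mean of 42.63 RPKM in controls to 28.54 RPKM in iPCKO samples. The sum of the 5 alpha chains was 219.8 and 214.7 RPKM, so the larger Lama5 share came with less Lama3. Nid1 was 84.01%, 83.12% and 84.54% of nidogen RPKM in controls and 86.00%, 84.86% and 85.31% in iPCKO samples, so both groups had mostly Nid1 and differed by 1.5 points. Lamb1 was 62.3% ± 0.6 of beta chain RPKM in controls and 63.0% ± 0.4 in iPCKO samples, and Hspg2 was 65.0% ± 2.2 and 66.0% ± 1.0 of the sum of Hspg2 and Agrn. Two-sided exact permutation tests gave p = 0.1 for Lama5 and for Nid1, the smallest that 3 against 3 samples allow, and 0.2 to 0.7 for the other 4 shares. Adjusted over the 6 shares, they were 0.3 to 0.7.

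**Figure D3:**
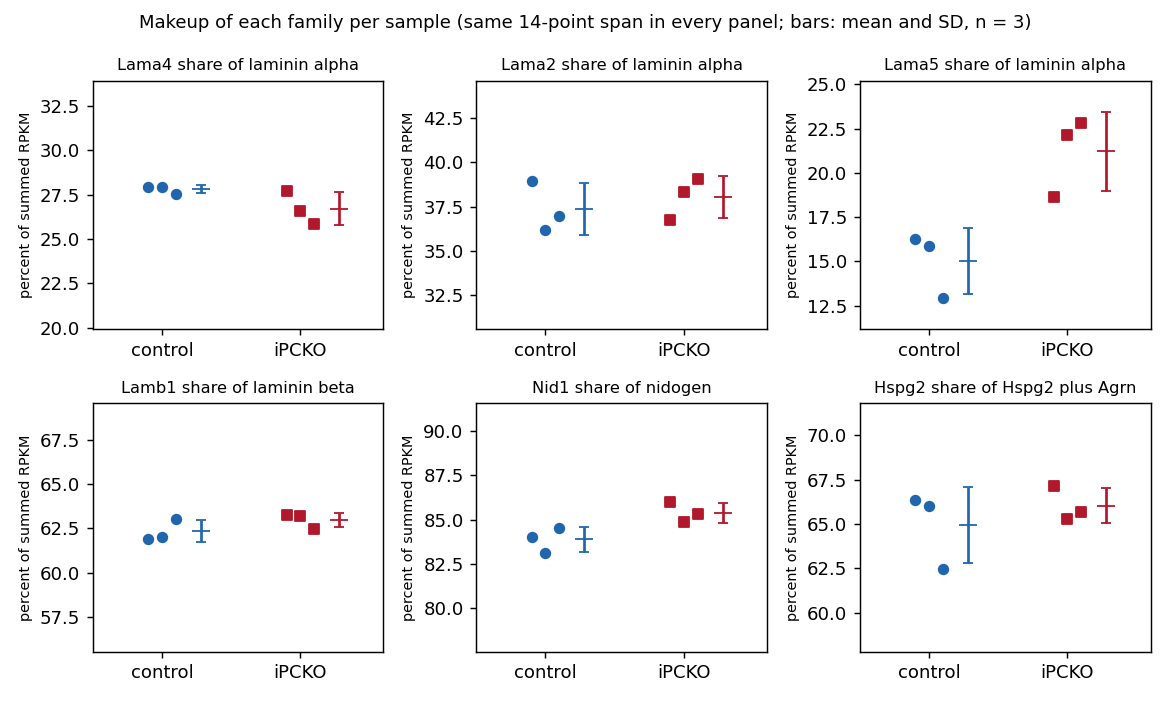
Percent of summed RPKM that a gene takes within its family in each sample (points), with the mean and SD beside them (n = 3 per group). All panels span 14 points, and the largest shift is that of Lama5, from 15.0% to 21.2% of the laminin alpha chains.

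Of the laminin chains outside the 10, Lama3 had a control mean above those of Agrn and Lama5, with control samples that overlapped theirs. The other chains were lower than all of the 10. In this list, 0 of 6 genes, netrin-4 included, met the thresholds, and 3 were at an unadjusted p below 0.05 (limma). Over all 12034 tested genes, 3570 were below 0.05, and 4.11% met the thresholds as higher and 2.68% as lower. Lama3, the alpha chain of epithelial laminins, was at 35.14, 43.04 and 49.70 RPKM in controls and 33.34, 27.58 and 24.69 RPKM in iPCKO samples. Those groups did not overlap, and the log2 fold change was -0.57 with an adjusted p of 0.0359. Ntn4, a laminin-related protein that binds the gamma chain and disrupts laminin networks, was at 20.6 ± 3.9 and 14.7 ± 2.1 RPKM (log2 fold change -0.48, adjusted p = 0.0626). Lamb3 was at 5.68 RPKM in controls and 5.45 RPKM in iPCKO samples, Lamc3 at 4.48 and 5.75 RPKM, and Lama1 at 0.91 and 1.40 RPKM. The median log2 fold change of these 6 was 0.08.

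The collagens of the same sheet showed more called genes, with 5 of 8 that rose and none that fell, beside 4.11% and 2.68% of all tested genes. The median log2 fold change of the 8 was 0.66. Col18a1, the precursor of endostatin and itself a heparan sulfate proteoglycan, rose from 7.80, 8.09 and 8.00 to 19.01, 30.52 and 26.21 RPKM, with no overlap (log2 fold change 1.63, SE 0.16, adjusted p = 0.000354). Col4a6 rose from 1.45 to 4.09 RPKM (1.42 on the log2 scale) and Col4a5 from a mean of 6.99 RPKM to 12.32, 16.35 and 13.33 RPKM (0.99), and Col4a3 and Col4a4 rose by 0.58 and 0.55 on the log2 scale. The main collagen IV genes Col4a1 and Col4a2 are far more abundant, at 794.8 and 491.0 RPKM in controls and 830.4 and 535.9 RPKM in iPCKO samples, with log2 fold changes of 0.06 and 0.13. Col15a1, at 10.8 and 18.0 RPKM, missed the thresholds narrowly (0.73, adjusted p = 0.0103). The count of 5 depended on single libraries. It was 2 without control 3, and 3 without control 1, without iPCKO 2 or without iPCKO 3. The 5 called genes had control means of 1.45 to 10.64 RPKM, and the part of other cells in their rise was not tested.

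Of the other basement membrane glycoproteins, 15 of 17 were tested, with a median of 0.13. Of these, 1 rose and 2 fell, beside 4.11% and 2.68% of all tested genes. Npnt (nephronectin), an integrin ligand, fell from 61.40, 58.21 and 65.67 to 29.47, 29.26 and 24.16 RPKM, with a log2 fold change of -1.16 and an adjusted p of 0.000262. Tinagl1, a laminin-binding matrix protein, fell from 8.04 to 4.62 RPKM (-0.80) and Smoc1, a SPARC-related protein, rose from 0.96 to 2.91 RPKM (1.49). Uncalled and abundant were the collagen-binding Sparc, at 1059 and 869 RPKM (-0.29, adjusted p = 0.203), the dystroglycan ligand Egflam (pikachurin), at 141.7 and 105.8 RPKM (-0.43, 0.0434), the collagen IV cross-linking enzyme Pxdn (0.13) and the hemicentin Hmcn1 (0.18).

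Among the receptors for laminin, agrin and perlecan, with partners such as Utrn, Dmd and Sspn counted in, 19 of 22 were tested. Their median was -0.19, and 1 rose and 3 fell, beside 4.11% and 2.68% of all tested genes. Itga1, an integrin alpha subunit for collagen IV and laminin, fell from 284.00, 265.35 and 311.13 to 144.86, 150.15 and 136.55 RPKM (-0.99, adjusted p = 0.000572), and the iPCKO mean was 50.2% of the control mean. Itga7, a laminin receptor of muscle, fell by 0.63 and the agrin receptor Lrp4 by 0.57 on the log2 scale, while Sgcb, a sarcoglycan of the dystroglycan complex, rose by 0.75. Of the abundant uncalled genes, Itgb1, the common integrin beta subunit, was at 349.0 and 369.8 RPKM (0.08), Sdc2 at 177.6 and 116.5 RPKM (-0.62, adjusted p = 0.0124), Dag1, which encodes dystroglycan, at 98.1 and 85.0 RPKM (-0.21) and Utrn at 89.8 and 118.8 RPKM (0.40). The count of called receptors was 1 without control 2, control 3 or iPCKO 2, and 2 without control 1 or iPCKO 3.

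The sugars read by these proteins are built by dedicated enzymes. In heparan sulfate synthesis and editing, 1 of 18 genes rose, beside 4.11% of all tested genes, the endosulfatase Sulf2, which trims sulfate from finished chains, from 4.16, 5.01 and 4.44 to 6.72, 8.98 and 8.96 RPKM (0.84, adjusted p = 0.00431). The abundant Extl3, Ndst1, Hs2st1 and Ext2 had log2 fold changes of -0.05, 0.23, -0.08 and 0.03, and the median of the 18 was -0.01. Of the uncalled genes with the largest folds, Hs3st1, a sulfotransferase, was at 9.02 and 4.46 RPKM (-1.07, adjusted p = 0.0177) and the heparanase Hpse at 0.67 and 1.85 RPKM (1.36, adjusted p = 0.0102). No gene of this group was called without control 1, control 3, iPCKO 2 or iPCKO 3, and up to 3 were called without another sample. In the glycosylation of alpha-dystroglycan, the sugar through which it binds laminin, agrin and perlecan, 0 of 12 tested genes of 13 met the thresholds in limma. An unadjusted p below 0.05 was found for 3 of them, beside 3570 of all 12034 tested genes. Of all tested genes, 4.11% met the thresholds as higher and 2.68% as lower. The abundant B4gat1 and Pomgnt1 had log2 fold changes of 0.00 and 0.07.

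Of 15 proteases and inhibitors that act on the basement membrane, 13 were tested, with a median of 0.01. Of these, 3 rose, beside 4.11% of all tested genes. Timp3, an inhibitor that binds the matrix, rose from 30.75, 35.86 and 37.51 to 78.30, 108.04 and 85.84 RPKM (1.38, adjusted p = 0.000395), with no overlap. Timp1 rose from 6.59 to 16.6 RPKM (1.29, adjusted p = 0.00149). Mmp9, a type IV collagenase made in quantity by neutrophils, rose from 0.65, 0.92 and 0.75 to 3.19, 12.89 and 28.36 RPKM (3.62, SE 0.64). The spread of Mmp9 among iPCKO samples was wide, and iPCKO 3 was the highest of them. The summed level of 10 neutrophil markers was 85.2 to 126.3 RPKM in controls and 441.4 to 4886 RPKM in iPCKO samples. Of these markers, 8 were tested and all 8 were higher in iPCKO samples without overlap, beside 18.3% of all tested genes. S100a8 was at 156.2, 727.0 and 1726 RPKM in iPCKO 1, 2 and 3. The part of neutrophils in the Mmp9 and Timp1 values was not tested. The abundant uncalled Htra1, Timp2, Ctsl and Mmp14 had log2 fold changes of 0.16, -0.36, -0.19 and 0.12.

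**Figure D4:**
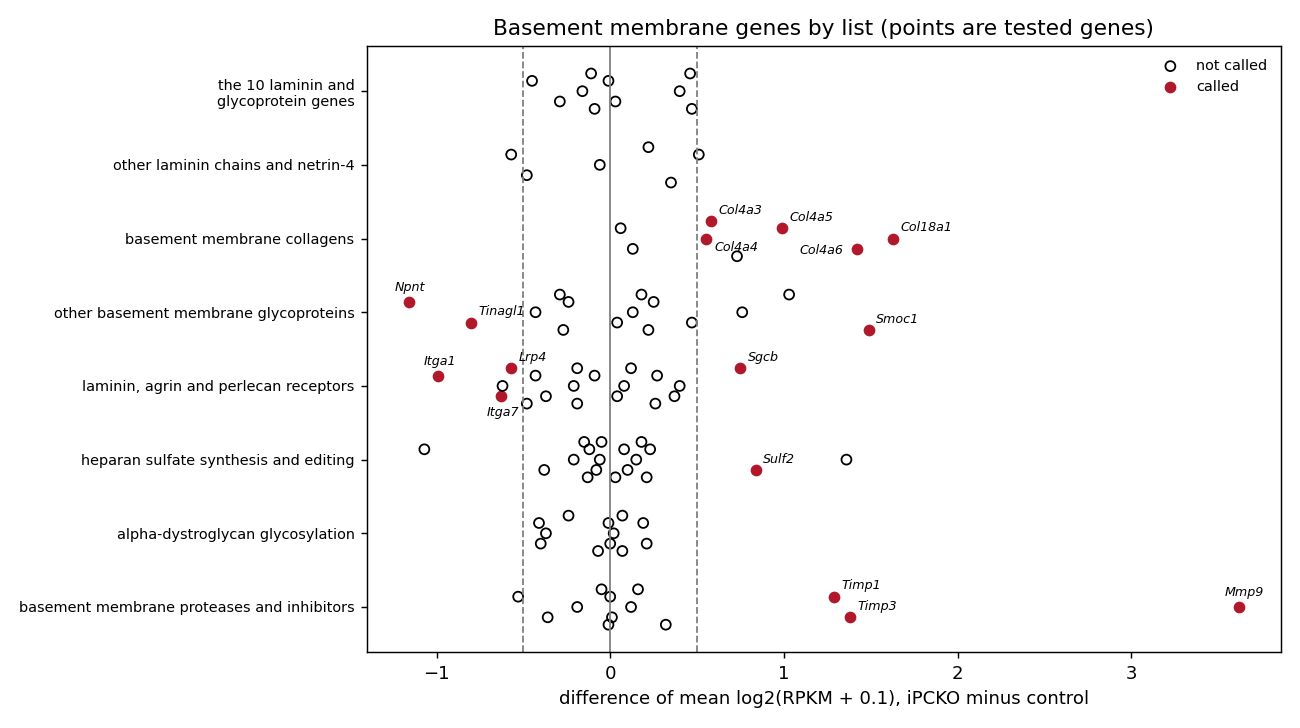
Log2 fold change of every tested gene in the 8 lists (difference of mean log2(RPKM + 0.1), iPCKO minus control), with called genes filled and named and dashed lines at the fold limit of 0.5. The 10 laminin, nidogen and proteoglycan genes stay within -0.45 to 0.47, while 5 collagens lie between 0.55 and 1.63.

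Summed levels of markers of several other cell types were higher in the iPCKO libraries. Among all tested genes, 18.3% were higher and 17.1% lower in iPCKO samples without overlap. The sum of 11 alveolar epithelial markers was 584.2 to 639.9 RPKM in controls and 716.4 to 790.1 RPKM in iPCKO samples, with 7 of 11 higher without overlap and none at 0. The sum of 10 endothelial markers was 183.5 to 206.7 and 208.7 to 232.5 RPKM, with 3 of 10 higher and 2 lower without overlap, beside 18.3% and 17.1% of all tested genes, and a median log2 fold change of 0.01. For 6 airway markers it was 112.3 to 181.1 and 243.4 to 266.4 RPKM, with 2 of 3 tested higher, 0 lower and Krt5 at 0 in all samples, and for 8 leukocyte markers 50.6 to 70.4 and 129.1 to 218.2 RPKM, with 7 higher. For 7 platelet markers it was 8.2 to 10 and 23.4 to 65.7 RPKM, with 5 of 6 tested higher, and for 5 mesothelial markers 6.7 to 9.2 and 10.8 to 14 RPKM, with 2 of 3 tested higher. Sums of fibroblast (231.6 to 284.9 and 250.1 to 327.3 RPKM), smooth muscle (915.4 to 1117 and 1079 to 1265 RPKM) and Schwann cell markers (2.9 to 3.3 and 2.8 to 4.1 RPKM) overlapped between the groups. Epithelium and endothelium also express Lama5, Hspg2 and Agrn, and the part of these cells in the higher values of the 3 genes was not tested.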

How the data were processed

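The authors made stranded total RNA libraries, aligned the read pairs with TopHat on the mm10 build (GRCm38), used HTSeq 0.6.1 for gene counts and DESeq2 for their tests. The deposited tables, 1 per sample, hold the authors' RPKM for 21603 Ensembl genes. The exon length used is not given in the sources used here. Counts were not used here, so the test was limma (lmFit and eBayes with an intensity trend) on log2(RPKM + 0.1) of the 12034 genes with at least 1 RPKM in at least 3 of 6 samples, with Benjamini-Hochberg adjustment over all tested genes. On this scale, changes of low genes come out too small. A gene was called where its log2 fold change exceeded 0.5 in size and its adjusted p was below 0.01, the limits of the study. Symbols of 21375 genes and 1-based GRCm38 coordinates came from GENCODE M21.

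Depth was read from low RPKM values times exonic length, of which 84.6% to 85.7% per sample fell within 0.1 of a whole read, and it was not used to make counts. Since RPKM do not keep the counts, no counting interval is given. The limma p-values rest on the total spread between samples, which includes counting error without separating it. In limma, eBayes draws the spread of each gene towards the intensity trend fitted over all tested genes. For a gene with closely matching samples, the spread used in the limma test can therefore be larger than its own. The scripts were tested on simulated data. Shares were compared with two-sided exact permutation tests.

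The 10 genes, the other lists and the marker lists were chosen with earlier results of these data known. Named are the 10, the deleted genes and, from each list, up to 4 called genes of largest fold and up to 4 uncalled genes of highest mean RPKM. Beyond this rule, Col4a4, Lama1, Lamc3, Hs3st1, Hpse and single marker genes were named after their values were seen, and 3 genes under the rule are not reported here. Genes of the nearest profile were to be named for each of the 10 that was called, and there was none. Alternatives were another pseudocount, filter or normalization, the replicate block, sample weights, no trend, other thresholds and each sample left out. Calculations used R 4.3.3, limma 3.58.1, Python 3.11.15, scipy 1.17.1, numpy 2.4.6, pandas 2.3.3 and, for figures, matplotlib 3.10.9.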

Additional observations from a re-analysis of the deposited data

How the results depend on the processing

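Hspg2, Agrn, Lama5, Lama4, Lamb1, Lamb2, Nid1 and Nid2 kept the sign of their log2 fold change under all 16 alternatives, with ranges of 0.38 to 0.54, 0.33 to 0.44, 0.37 to 0.62, -0.13 to -0.06, -0.21 to -0.04, -0.23 to -0.07, -0.33 to -0.22 and -0.53 to -0.33. Lama2 turned positive with sample weights (0.06), with the G+C trend removed (0.03, a setting chosen after seeing the data), without control 1 (0.01) and without iPCKO 1 (0.06), and with 1 sample left out it ranged from -0.05 to 0.06. Lamc1 turned negative with quantile normalization (-0.11) and without iPCKO 2 (-0.01), and with 1 sample left out it ranged from -0.01 to 0.07. With sample weights, 2 of the 10 genes were called, Lama5 (0.62) and Hspg2 (0.52), with the G+C trend removed 1 was (Nid2, -0.51), and with 1 sample left out 0 to 1. The cause was not tested.

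Over all genes, 1590 were called with sample weights, 1313 at an adjusted p below 0.05, 411 at an absolute log2 fold change above 1 and 382 to 899 with 1 sample left out, the lowest being 382 without control 3, 414 without iPCKO 2 and 499 without iPCKO 3. Sample weights gave 1 called gene among the other laminin chains and netrin-4, 6 among the other glycoproteins, 7 receptors and 3 heparan sulfate genes. An adjusted p below 0.05 gave 1, 5 and 3 for other laminins, other glycoproteins and heparan sulfate genes. An absolute log2 fold change above 1 left 2 collagens, 0 receptors and 0 heparan sulfate genes. Heparan sulfate genes called were 2 with a pseudocount of 1, with quantile normalization and with no intensity trend. With 1 sample left out, counts were 2 to 6 for collagens, 1 to 4 for receptors and 0 to 3 for heparan sulfate genes, and the Hspg2 share differed by -0.15 to 1.80 points, negative without control 3.

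Same-numbered samples of the groups did not deviate together in every pair (r = 0.238, 0.092 and 0.022), so the numbers were not read as pairs. With the replicate block, 922 genes were called over all genes, 0 of the 10, and 3 heparan sulfate genes in place of 1. With 3 samples per group, the intervals of the 10 genes cannot distinguish changes of a few percent from none.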
